A study of Mus musculus with 6 samples.

Results

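The genes examined here encode small subunits and partners of the sodium-potassium ATPase, the sodium pump, in growing mouse muscle. The set was chosen by gene symbol and holds 7 of the 23367 entries in the table: the beta subunit genes Atp1b1, Atp1b2, Atp1b3 and Atp1b4 and the FXYD genes Fxyd1, Fxyd5 and Fxyd6. RNA came from the gastrocnemius, a mainly fast-fibred calf muscle, of wild type FVB mice at embryonic day 18.5 (E18.5), postnatal days 2, 14 and 28 (PN2, PN14 and PN28) and 22 weeks (adult). There were 6 libraries of polyadenylated RNA, of which PN14 has 2 (replicates 1 and 2, from separate mice) and each other stage has 1. The E18.5 library pooled animals of both sexes and the PN2 library pooled males, while the remaining libraries came from 1 male each. Every library was sequenced on its own lane, so lane and stage cannot be told apart.

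The sodium pump exports sodium and imports potassium at the cost of ATP, which in muscle restores the membrane gradients that action potentials run down. A beta subunit is needed for the catalytic subunit to fold and reach the cell surface, and FXYD proteins are small single-span membrane proteins that bind the assembled pump and tune its affinity for ions. Atp1b4 is the exception among the beta genes. In placental mammals its protein is found mainly at the inner nuclear membrane of perinatal muscle and is not known to serve as a pump subunit.

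In these data, Atp1b4 RNA supplied about 3 in 4 beta subunit transcripts before birth and almost none in the adult. Between PN2 and PN14 Atp1b4 fell while Atp1b1, Atp1b2 and Fxyd1 (phospholemman, the main FXYD protein of heart and skeletal muscle) rose, and these were the members that passed the test over that interval. Atp1b3, Fxyd5 and Fxyd6 moved by less than 2-fold there. Levels between genes are compared as FPKM, fragment counts scaled to transcript length and library size, and changes between stages as log2 fold changes (later over earlier) from a single edgeR fit on the expected counts.

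In the mm9 assembly, with GENCODE M1 gene models, Atp1b1 lay at chr1:166367398-166388486 on the minus strand, Atp1b2 at chr11:69413238-69419444 (minus), Atp1b3 at chr9:96233099-96264766 (minus) and Atp1b4 at chrX:35669361-35689946 (plus). Fxyd1 lay at chr7:31836700-31840675 and Fxyd5 at chr7:31817741-31827500, both on the minus strand, and Fxyd6 at chr9:45178268-45204241 on the plus strand. Fxyd5, Fxyd7 and Fxyd1 stood in a row on chromosome 7, with 35 bases between Fxyd7 and Fxyd5 and 218 bases between Fxyd1 and Fxyd7. Fxyd6 and Fxyd2 were neighbours on chromosome 9, with 3715 bases between them. No exon of any of the 7 members overlapped an exon of another annotated gene.

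Promoter windows from RefSeq on GRCm38.p6, 250 bases before to 50 bases after the annotated start, were matched by symbol for 6 of the 7 members; the one not matched was Atp1b2. Those of Atp1b4, which fell, and of Atp1b1 and Fxyd1, which rose together, are printed because the results turn on these genes. Capitals mark matches, on either strand, to any of 6 motifs: the E-box (CANNTG), the GC box (GGGCGG), the TATA box (TATAAA), the nuclear receptor half-site (AGGTCA), MEF2 and the CArG box.
Atp1b4 (chrX:38315872-38316171, plus strand): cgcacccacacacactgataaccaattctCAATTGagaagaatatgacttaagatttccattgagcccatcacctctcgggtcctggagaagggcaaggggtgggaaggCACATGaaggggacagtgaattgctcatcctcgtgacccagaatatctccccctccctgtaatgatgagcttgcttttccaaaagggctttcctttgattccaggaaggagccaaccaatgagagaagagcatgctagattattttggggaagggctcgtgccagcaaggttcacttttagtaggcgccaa
Atp1b1 (chr1:164458306-164458605, minus strand): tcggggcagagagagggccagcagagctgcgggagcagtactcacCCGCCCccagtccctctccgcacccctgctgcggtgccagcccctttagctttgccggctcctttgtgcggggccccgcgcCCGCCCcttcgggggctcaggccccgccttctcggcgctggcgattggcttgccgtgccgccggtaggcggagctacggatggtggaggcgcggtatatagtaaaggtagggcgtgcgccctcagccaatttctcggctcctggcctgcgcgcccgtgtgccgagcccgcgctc
Fxyd1 (chr7:31054804-31055103, minus strand): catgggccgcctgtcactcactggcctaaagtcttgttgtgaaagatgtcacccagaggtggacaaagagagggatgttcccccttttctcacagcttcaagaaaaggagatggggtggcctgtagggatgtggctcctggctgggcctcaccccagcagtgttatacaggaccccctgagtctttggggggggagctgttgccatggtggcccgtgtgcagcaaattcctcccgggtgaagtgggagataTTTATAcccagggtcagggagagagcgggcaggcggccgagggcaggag
The Atp1b4 window held 2 E-boxes and was 49.0% G and C, the Atp1b1 window held 2 GC boxes at 71.0%, and the Fxyd1 window held 1 TATA box at 58.7%, beside a median of 52.7% over all 32851 windows. The matches did not overlap each other. The TATA box match of Fxyd1 was on the strand opposite to the printed one, at position 1 from the annotated start, and is a match of letters only. An E-box was found in 72.3% of all windows, a GC box in 35.7% and a TATA box in 13.6%, so none of these matches was uncommon. MEF2 (3.19% of all windows), the CArG box (1.63%) and the half-site (16.3%) had no match in any window of the 6 members.

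The first question was how the level of each member ran across the 5 stages. Atp1b4 RNA measured 286 FPKM (E18.5) and 321 FPKM (PN2) around birth, then 4.68 (PN14 replicate 1), 26.1 (replicate 2), 2.32 (PN28) and 0.45 (adult). Both perinatal libraries were therefore far above the other 4, and the ratio of the highest to the lowest library was 713, compared with 2.14 to 6.66 for the other members. Ordered by FPKM, Atp1b4 was gene 214 of the 18150 with a value above 0 at PN2 and gene 11695 of 16643 in the adult. The counts behind these levels ran from 201987 at PN2 to 258 in the adult, so the lowest value still rested on 258 fragments.

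**Figure D1:**
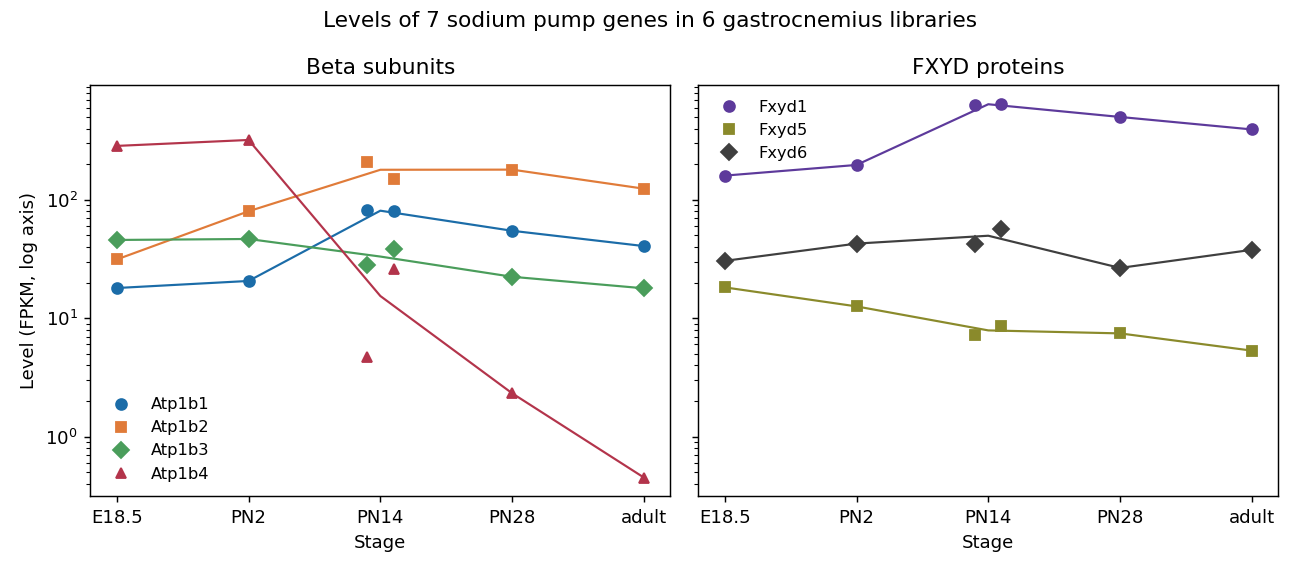
Level in FPKM (log axis) of the 4 beta subunit genes (left) and the 3 FXYD genes (right) at 5 stages. Each point is a library, with PN14 replicate 1 drawn left and replicate 2 right of the tick, and lines join the stage values through the PN14 mean; Atp1b4 drops from 321 FPKM at PN2 to 0.45 in the adult while Fxyd1 is at 160.3 or more in every library.

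The PN14 libraries did not agree well for Atp1b4. Replicate 2 exceeded replicate 1 by 2.22 on the log2 scale of normalised CPM. Only 20 of 12933 genes (0.155%), Atp1b4 itself among them, had a gap at least as large. The gap was smaller for the other 6 members, from 0.00 for Fxyd5 to 0.73 in size for Atp1b2, which was higher in replicate 1. Replicate 2 also carried more RNA of the marker lists for Schwann cells (893 summed FPKM, compared with 229 in replicate 1), endothelium (287 and 175), smooth muscle and pericytes (318 and 169) and satellite cells (17.6 and 11.4), and less of the list for mature muscle fibre (66970 and 83300). On the normalised CPM scale of the gap, replicate 2 was the higher for 8 of the 8 Schwann cell markers, 5 of 6 endothelial (not Emcn), 4 of 5 smooth muscle and pericyte (not Myh11) and 3 of 3 satellite cell markers, and for 0 of the 6 markers of mature muscle fibre. Replicate 2 was also the higher for 6 of 6 macrophage and leukocyte, 4 of 6 fibroblast and 5 of 6 epithelial markers. It was the higher for 0 of 5 slow fibre, 0 of 5 erythroid and 0 of 4 neuron markers. The erythroid list summed to 1153 FPKM in replicate 2 and 2092 in replicate 1. The part of these cell types in the gap was not tested.

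Atp1b1, the widespread beta 1 isoform, measured 17.99 FPKM before birth and 20.6 at PN2, then 82.3 and 79.8 (PN14 replicates 1 and 2), 54.8 (PN28) and 40.7 (adult). The perinatal libraries were the lowest and those at PN14 the highest. Atp1b2, the beta 2 isoform first described as a glial adhesion molecule and the usual partner in fast muscle fibres, stood at 31.4, 80.1, 209 and 150.3, 180.1 and 124 FPKM in the same order. Its level at PN2 already exceeded that at E18.5, and its 4 later libraries lay above both. Atp1b3, the beta 3 isoform, stood at 45.8, 46.7, 28.2 and 38.1, 22.4 and 17.9 FPKM, with the perinatal libraries highest and the adult lowest.

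Fxyd1 was the most abundant member from PN14 on, with 160.3 FPKM before birth, 197 at PN2, then 635 and 651 (PN14 replicates 1 and 2), 502 (PN28) and 394 (adult). In PN14 replicate 1 it was gene 97 of 17138 by FPKM. Fxyd5 (dysadherin, known from epithelial and cancer cells as a modifier of the pump and of adhesion) stood at 18.2, 12.6, 7.20 and 8.57, 7.44 and 5.32 FPKM, highest before birth. Fxyd6 (phosphohippolin, best known from brain and inner ear) stood at 30.5, 42.7, 42.6 and 56.9, 26.6 and 37.8 FPKM, with no steady direction.

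Scaling between libraries affects the size of all changes that cross from PN2 to later stages, and it matters most for the less changed members. The library composition shifted after PN2, with TMM factors of 1.45 in both perinatal libraries and between 0.714 and 1.01 later, and with library size alone the median gene would fall by 0.66 on the log2 scale from PN2 to PN14 and by 1.08 from E18.5 to the adult. FPKM carries no such scaling. Thus Atp1b3, which was lower in FPKM at the later stages, had 56.1 normalised CPM (TMM-scaled counts) before birth and 57.2 at PN2, then 59.8 and 67.4 (PN14), 50.8 (PN28) and 44.6 (adult). Fxyd5 was 12.2, 8.51, 8.30 and 8.30, 9.22 and 7.21 normalised CPM. On this scale the stages of both genes lay within 1.7-fold of each other.

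On the normalised CPM scale, neighbouring stages could be set against the gap between the PN14 libraries. Ordered from high to low, Atp1b1 ran PN14, PN28, adult, PN2, E18.5, and neither the step from PN28 to adult (0.29 on the log2 scale) nor that from PN2 to E18.5 (0.20) exceeded the gap of 0.30. Fxyd1 had the same order, and its steps between PN14 and PN28 and between PN28 and adult were within its gap of 0.22. Its steps of adult over PN2 (2.0) and PN2 over E18.5 (0.30) were beyond that gap. For Atp1b2 the order PN28, PN14, adult was within the gap of 0.73, while adult over PN2 (1.7) and PN2 over E18.5 (1.4) were beyond it. Only the last step of Atp1b3, PN28 over adult at 0.19, exceeded its gap of 0.17. For Atp1b4, PN2 over E18.5 (0.17) was well within its gap of 2.2, while E18.5 over PN14 (3.6) was beyond it. PN14 over PN28 (2.4) and PN28 over adult (2.2) exceeded the Atp1b4 gap only narrowly. Fxyd6 at PN14 and in the adult differed by 0.02, within its gap of 0.16, while its other steps (0.20 to 0.65) were beyond it. The Fxyd5 gap was so close to 0 that every step exceeded it, and it gives no useful measure of spread for that gene.

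From E18.5 to PN2 none of the 7 members was called by edgeR's quasi-likelihood test (adjusted p under 0.05 by the Benjamini-Hochberg method and at least a 2-fold change), in an interval where 0.0296% of all 16882 tested genes were. Atp1b2 had the largest difference, with a log2 fold change of 1.35 ± 0.47 (SE) and an edgeR adjusted p of 0.621. It was the 1 member with an unadjusted p under 0.05 and the 1 member past 2-fold without a test, where 3.44% of genes were. The call hung on the method, as Atp1b2 had an adjusted p of 0.0462 with DESeq2's Wald test and of 0.0244 in the edgeR fit with library size alone.

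From PN2 to PN14, 4 of the 7 members were called, 3 up and 1 down, in an interval where 23.0% of all genes tested were called (edgeR's quasi-likelihood test). Atp1b1 rose by a log2 fold change of 2.64 ± 0.27 (6.23-fold, adjusted p = 0.00475), Fxyd1 by 2.36 ± 0.29 (5.14-fold, adjusted p = 0.00616) and Atp1b2 by 1.85 ± 0.44 (3.61-fold, adjusted p = 0.0267). Atp1b4 fell, with a log2 fold change of -3.81 ± 0.79 and an edgeR adjusted p of 0.0194. Fxyd6 passed the adjusted p (0.0235) but not the fold, at 0.87 ± 0.19, and Atp1b3 (0.15 ± 0.18) and Fxyd5 (-0.03 ± 0.20) had adjusted p of 0.554 and 0.909. Without a test the same 4 members were past 2-fold, where 26.9% of genes were.

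The fall of Atp1b4 was past 2-fold against either PN14 library, with a log2 difference of -3.09 when replicate 1 was left out and -5.30 when replicate 2 was left out. With DESeq2's Wald test it missed the threshold at an adjusted p of 0.0583. The median over the 7 members was 0.87, the value of Fxyd6, beside -0.01 over all genes tested. The members, like the gene lists below, were chosen with earlier results of these data known, so such medians only describe them. Over the same interval the 6 markers of mature muscle fibre went from 24490 summed FPKM at PN2 to 83300 and 66970 in the PN14 replicates. Des, 1 of the 6, did not share that rise, at 1188 FPKM at PN2 and 1284 and 1085 in the PN14 replicates. The 3 satellite cell markers went from 53.0 to 11.4 and 17.6 summed FPKM. In bulk tissue, fewer cells of a type and less RNA per cell cannot be told apart, and the part of cell composition in the members' changes was not tested.

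**Figure D2:**
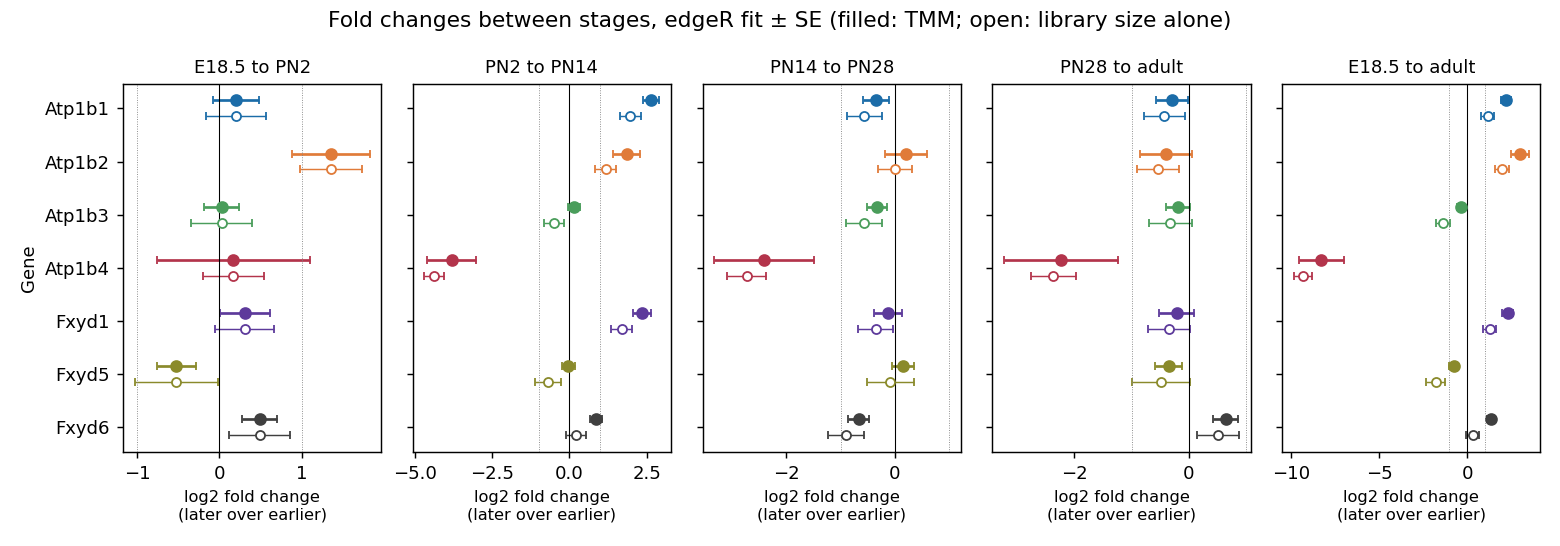
Log2 fold change (later over earlier stage, horizontal axis, with its own range in each panel) of the 7 members over the 4 consecutive intervals and from E18.5 to the adult, with bars of 1 SE from the edgeR fit. Filled points use TMM scaling and open points library size alone, and dotted lines mark a 2-fold change; Atp1b1, Atp1b2 and Fxyd1 lie to the right and Atp1b4 to the left in the PN2 to PN14 panel under both scalings, whereas Atp1b3 changes side there.

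From PN14 to PN28 none of the 7 members was called by edgeR's quasi-likelihood test, with 0.0178% of genes called in all. DESeq2's Wald test also called 0, and 2 members (Atp1b4 and Fxyd6) had an unadjusted p under 0.05. Atp1b4 had a log2 fold change of -2.41 ± 0.92 (edgeR adjusted p = 0.584) and was the 1 member past 2-fold without a test, where 3.35% of genes were. That difference rested on PN14 replicate 2, since against replicate 1 alone the log2 difference was -0.91 and against replicate 2 alone it was -3.12. In the edgeR fit with library size alone Atp1b4 was called, at -2.73 with an adjusted p of 8.39e-11. Fxyd6 was at -0.66 ± 0.19 and the other 5 members lay between -0.34 and 0.21.

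From PN28 to the adult none of the 7 members was called either, by edgeR's quasi-likelihood test or by DESeq2's Wald test, where edgeR called 0.521% of genes. Atp1b4 again had the largest difference, a log2 fold change of -2.23 ± 0.996 with an edgeR adjusted p of 0.311, and was the 1 member past 2-fold without a test, where 10.2% of genes were. With library size alone it was called, at -2.37 with an edgeR adjusted p of 2.14e-07. Fxyd6, the 1 member with an unadjusted p under 0.05, was higher in the adult by 0.65 ± 0.22 (edgeR adjusted p = 0.209). Atp1b1, Atp1b2, Atp1b3, Fxyd1 and Fxyd5 were lower in the adult by 0.19 to 0.40 on the log2 scale, none of them past the test.

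Over the whole span, from E18.5 to the adult, 5 of the 7 members were called by edgeR's quasi-likelihood test, in a comparison in which 44.9% of all genes were. Atp1b4 fell by 8.28 ± 1.28 on the log2 scale (312-fold, adjusted p = 0.00383), and its fold change stood at place 183 from the bottom of 16882 genes. Atp1b2 rose by 3.01 ± 0.50 (8.06-fold, adjusted p = 0.00458), Fxyd1 by 2.32 ± 0.32 (adjusted p = 0.00266) and Atp1b1 by 2.20 ± 0.29 (adjusted p = 0.0024). Fxyd6 was called at 1.34 ± 0.22 (adjusted p = 0.00459), but with library size alone it was at 0.31 with an edgeR adjusted p of 0.474, so its call depended on the scaling. Fxyd5 passed the adjusted p (0.0379) without reaching 2-fold, at -0.76 ± 0.24, and Atp1b3 was at -0.33 ± 0.21 (edgeR adjusted p = 0.227). With library size alone both were past the fold and the test, at -1.79 and -1.36. Without a test 5 members were past 2-fold, where 49.6% of genes were.

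PN2 and PN28 bracket the interval from PN2 to PN14, in which the 4 members called there moved most. The same 4 members as from PN2 to PN14 were called by edgeR's quasi-likelihood test, where 27.0% of genes were, and the same 4 were past 2-fold without a test, where 33.9% of genes were. Atp1b4 was at -6.22 ± 1.17 (adjusted p = 0.015), Atp1b1 at 2.30 ± 0.29, Fxyd1 at 2.23 ± 0.31 and Atp1b2 at 2.06 ± 0.48 on the log2 scale. With library size alone Atp1b3 was called as well, at -1.06 with an edgeR adjusted p of 0.0143. These comparisons share libraries with those above and do not add independent evidence.

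Shares within a library do not depend on scaling between libraries, and they trace the make-up of the beta subunit transcripts. Atp1b4 made up 75.0% (E18.5) and 68.5% (PN2) of the summed FPKM of the 4 beta genes around birth, then 1.44% and 8.88% (PN14 replicates 1 and 2), 0.894% (PN28) and 0.245% (adult). Atp1b2 went from 8.24% and 17.1% in the perinatal libraries to 64.5% and 51.1% (PN14), 69.4% (PN28) and 67.8% (adult). Atp1b1 went from 4.72% and 4.41% to 25.4% and 27.1%, 21.1% and 22.2%. In words, Atp1b4 transcripts led both perinatal libraries and Atp1b2 transcripts led all 4 later ones, with Atp1b1 second. Atp1b3 kept a share between 8.62% and 13.0% in every library.

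**Figure D3:**
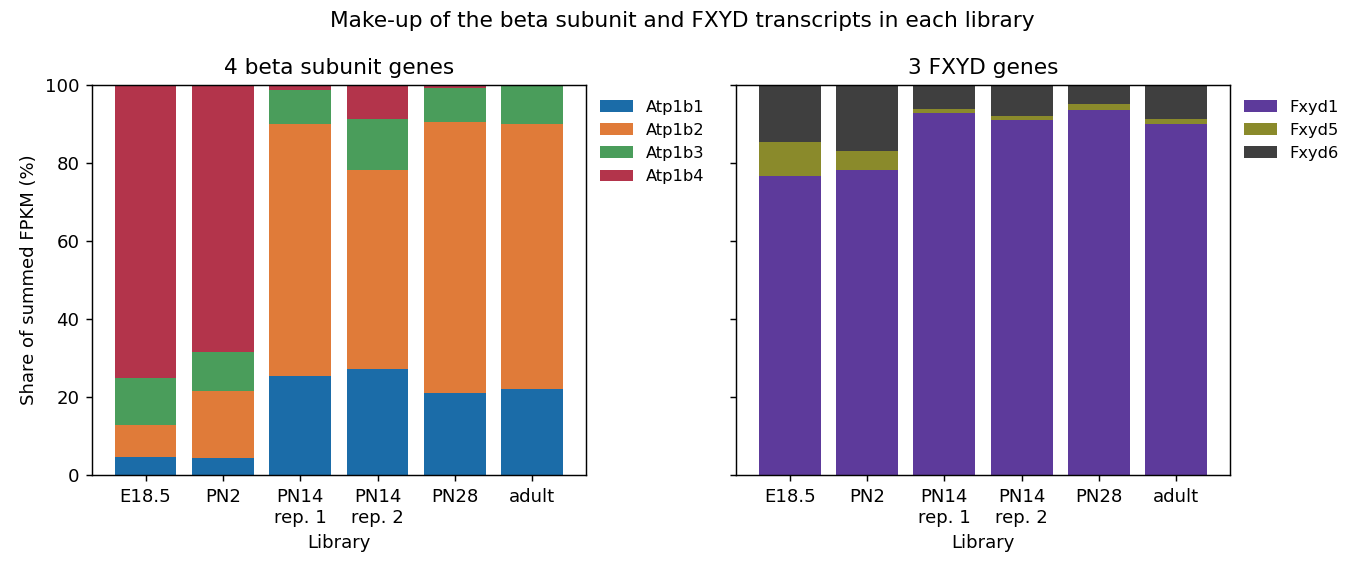
Share of summed FPKM (percent, vertical axis from 0) taken by each of the 4 beta subunit genes (left) and each of the 3 FXYD genes (right) in each of the 6 libraries. Atp1b4 fills 75.0% and 68.5% of the beta bars at E18.5 and PN2, Atp1b2 fills 51.1% to 69.4% of the later ones, and Fxyd1 fills at least 76.7% of every FXYD bar.

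With Atp1b4 left out of the sum, as its protein is not known as a pump subunit, the leading classical beta gene by FPKM differed between E18.5 and the later libraries. Atp1b3 was then the leading isoform at E18.5, with 48.1% of the summed FPKM beside 33.0% for Atp1b2 and 18.9% for Atp1b1. By expected counts, not divided by length, Atp1b2 was already ahead there (14420, compared with 12870 for Atp1b3), so that lead rests on the length scaling. Atp1b2 led from PN2 on, with 54.3% there, then 65.4% and 56.0% (PN14), 70.0% (PN28) and 68.0% (adult). The summed FPKM of these 3 genes was 95.2 before birth and 147 at PN2, then 319 and 268 (PN14), 257 (PN28) and 183 (adult).

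Among the FXYD genes Fxyd1 held the largest share in all 6 libraries, 76.7% before birth, 78.1% at PN2, then 92.7% and 90.9% (PN14), 93.7% (PN28) and 90.1% (adult). Fxyd6 held 14.6% and 16.9% in the perinatal libraries and 4.96% to 8.66% in the later ones. Fxyd5 went from 8.72% at E18.5 to 4.98% at PN2 and between 1.05% and 1.39% thereafter. The fibroblast and extracellular matrix markers, 6 genes, were also highest at E18.5 (6087 summed FPKM), followed by 4979 (PN2), 1732 and 2046 (PN14), 1865 (PN28) and 516 (adult), although Dcn, 1 of the 6, was higher at PN2 (419 FPKM) than at E18.5 (393) and stood at 329 in the adult, and their part in the Fxyd5 level was not tested.

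Ratios within a library showed which members kept pace. The FPKM ratio of Fxyd1 to Atp1b1 was 8.91 before birth and 9.56 at PN2, then 7.72 and 8.16 (PN14), 9.16 (PN28) and 9.68 (adult), so it moved little while both genes changed several-fold. The ratio of Atp1b2 to Atp1b3 went from 0.685 and 1.72 to 7.40 and 3.94, 8.05 and 6.95 in the same order. The ratio of Fxyd1 to Fxyd5 went from 8.80 and 15.7 to 88.2 and 75.9, 67.5 and 74.0. Atp1b1 stayed below Atp1b2 throughout, at 0.258 (PN2) to 0.573 (E18.5) of its FPKM, with the PN14 replicates at 0.394 and 0.531.

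**Figure D4:**
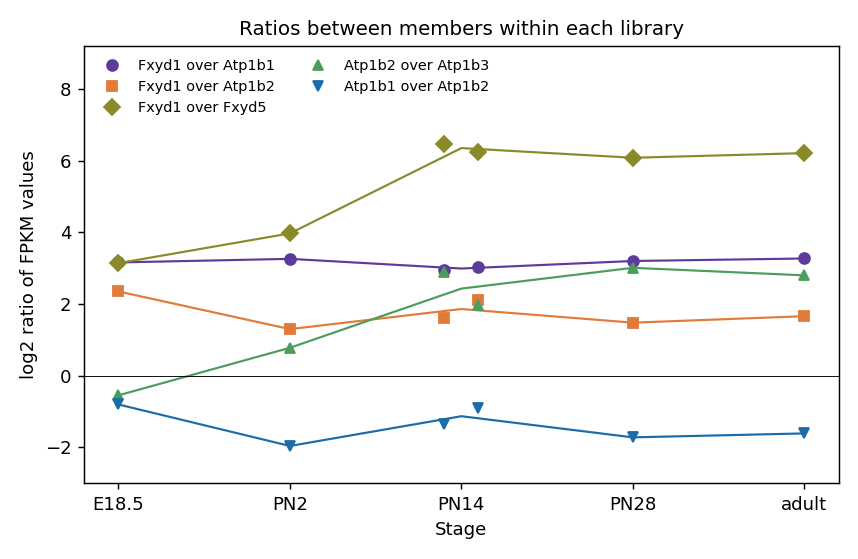
Log2 ratio of FPKM values (vertical axis) for 5 pairs of members at 5 stages, with a point for each library (the PN14 replicates left and right of the tick) and lines through the PN14 mean. Fxyd1 over Atp1b1 is nearly level, between 2.95 and 3.27, while Atp1b2 over Atp1b3 and Fxyd1 over Fxyd5 climb after PN2.

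The genes with the profile most like each member were sought among 13015 genes, by the root mean square difference between centred log2 profiles over the 6 libraries, of which 2 are the PN14 pair and all share the same scaling. For Atp1b1 these were Rps6kl1 (0.101), Ndufc1 (0.114) and Fxyd1 (0.120), and for Fxyd1 they were Tcaim (0.061), Ndufc1 (0.067) and Ly6c1 (0.073). Ndufc1, a small subunit of respiratory complex I, was thus near both. For Atp1b4 the nearest were Plagl1, an imprinted zinc finger gene (0.495), and the connexin genes Gjd4 (0.497) and Gja3 (0.508). All were further away than the neighbours of any other member. From PN14 on, Gjd4 did not exceed 0.53 FPKM and Gja3 did not exceed 1.01. The later part of both connexin profiles thus lies near the floor, where the 0.1 CPM added before the log weighs most. Plagl1 stood at 256 and 181 FPKM in the perinatal libraries and 0.36 in the adult, and it too was higher in PN14 replicate 2 (15.5) than in replicate 1 (6.10).

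For Atp1b2 the nearest profiles were those of Rasl2-9 (0.186), Fam19a3 (0.203) and the clock gene Per3 (0.209), all further away than the neighbours of Atp1b1. Atp1b3 had Manba (0.043), Gtpbp6 (0.045) and Ppp1r12c (0.050), and Fxyd5 had Mertk (0.048), Ggcx (0.048) and B9d1 (0.051). Fxyd6 had Flywch2 (0.143), Esrrg (0.145) and Mat2a (0.146).

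The remaining FXYD genes were minor in this muscle. Fxyd2 (the gamma subunit of kidney), Fxyd3 and Fxyd7 (a brain form) did not exceed 3.32 FPKM in any library, and Fxyd4 was listed at 0 in all 6. From PN2 to PN14, 2 of the 3 that could be tested rose by edgeR's quasi-likelihood test, where 23.0% of all genes were called, Fxyd3 by 2.35 (adjusted p = 0.0163) and Fxyd7 by 1.69 (adjusted p = 0.0235) on the log2 scale. Fxyd3 shares exon sequence with Lgi4 on the opposite strand, and strand use in the counting is not given in the sources used here, so its value is uncertain. It was highest in PN14 replicate 2 (2.74 FPKM, compared with 1.73 in replicate 1), the library with the most Schwann cell marker RNA. The library with the next most, PN2 (383 summed FPKM), had Fxyd3 at 0.68 FPKM, and a link between these levels was not tested. From E18.5 to the adult Fxyd2 rose by 3.11 (adjusted p = 0.00468) and Fxyd3 by 2.98 (adjusted p = 0.00562) in the same edgeR fit. The proton pump relatives Atp4a, Atp4b and Atp12a did not exceed 0.05 FPKM. Atp12a was called lower from PN2 to PN14 (edgeR adjusted p = 0.0429) and from E18.5 to the adult (0.0327), at levels between 0.00 and 0.05 FPKM.

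Of 12 regulators and kinases of the pump, 4 rose and 2 fell from PN2 to PN14 by edgeR's quasi-likelihood test, where 23.0% of all genes were called, with a median log2 fold change of 0.23 beside -0.01 over all genes tested. Sgk1, the kinase that couples corticosteroid signals to sodium transport, rose by 3.18 (adjusted p = 0.00873), from 15.7 FPKM at PN2 to 107 and 69.0 at PN14. Nkain1, a membrane protein that binds a beta subunit of the pump, rose by 1.82, Prkca (protein kinase C alpha, which phosphorylates phospholemman) by 1.22 and the phosphatase inhibitor Ppp1r1a by 1.10. Prkaca, the catalytic subunit of protein kinase A that phosphorylates phospholemman, fell by 1.24 (adjusted p = 0.0307), and Nkain4 fell by 1.70. From E18.5 to the adult, 5 of the 12 rose and 3 fell, where 44.9% of all genes were called, with a median of 0.61 beside -0.05 over all genes tested. The catalytic phosphatase subunit gene Ppp1cb (1.52) joined those that rose and the kinase gene Src (-1.61) those that fell.

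Of 4 genes for nuclear proteins tied to Atp1b4 or to the inner nuclear membrane, 1 was called from PN2 to PN14, where 23.0% of all genes were called. Tmpo, which encodes lamina-associated polypeptides, fell by 1.08 (edgeR adjusted p = 0.0234), from 57.8 FPKM at PN2 to 13.7 and 22.2 at PN14. The transcriptional coregulator Snw1 was at 32.0 FPKM at PN2 and 23.2 and 25.8 at PN14, with a log2 fold change of 0.27 and an edgeR adjusted p of 0.289. Smad7 (-0.29) and Lemd3 (0.25) did not pass the test either.

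Of 12 genes for sodium, potassium and chloride transport at the muscle membrane, 4 rose and 1 fell from PN2 to PN14 by edgeR's quasi-likelihood test, where 23.0% of all genes were called, with a median log2 fold change of 0.13 beside the same -0.01. Those that rose were Clcn1, the muscle chloride channel (2.90), Scn4a, the adult muscle sodium channel (1.93), and the potassium channel genes Kcnj11 (1.67) and Kcnj2 (1.13). Clcn1 reached 43.2 and 32.2 FPKM in the PN14 replicates from 8.13 at PN2. The sodium-calcium exchanger Slc8a1 fell by 1.14, and from PN28 to the adult it rose by 1.80 (edgeR adjusted p = 0.0476). From E18.5 to the adult, 8 of the 12 were called and each of the 8 rose, where 44.9% of all genes were called, with a median of 1.67 beside -0.05 over all genes tested. Those 8 were the 4 above with Slc8a3 (2.90), the channel regulator gene Abcc9 (2.11) and the cotransporter genes Slc12a2 (1.52) and Slc4a4 (1.19).

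Muscle fibre RNA was present in every library, although the markers used cannot tell one skeletal muscle from another. All 6 markers of mature muscle fibre were present, at 21650 to 92330 summed FPKM, and the 4 neuron markers together did not exceed 0.60 FPKM. Counts on genes per library ran from 125402932 to 157868359.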

How the data were processed

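Per the authors, reads were mapped to mm9 using TopHat2 2.0.5 and RSEM assigned fragments to RefSeq genes; they deposited an expected count and an FPKM value for each gene in each library. The deposited expected counts were whole numbers with no scaling between libraries, and the deposited FPKM values were scaled by the authors to length and library only. Expected counts were analysed in R 4.3.3 with edgeR 4.0.16: TMM normalisation, filterByExpr (16882 genes kept), the quasi-likelihood test with all 6 libraries and the 5 stages as groups, and Benjamini-Hochberg adjustment over all genes in each comparison. Genes were called where the adjusted p was below 0.05 and the change at least 2-fold (log2 of 1). Standard errors are the log2 fold change over the square root of the test's F. Only PN14 has replicates, so 1 residual degree of freedom (common biological coefficient of variation 0.188) stands for the spread at all stages. On simulated data for PN2 to PN14, 199 of 200 genes changed 4-fold were recovered among 16882, with 8 false calls. That simulation gave every gene the common coefficient of variation and changed only genes with a mean of at least 1 CPM. It does not show how the test performs for genes with a wider spread, such as Atp1b4.

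Counts past 2-fold without a test used log2(normalised CPM + 0.1) for genes with at least 1 CPM in a compared stage; the PN14 gap used the same scale. Shares and ratios used FPKM within a library. Alternatives were library size alone, DESeq2's size factors, DESeq2 1.42.0's Wald test, edgeR's exact test, other filters, no fold threshold, shares from counts, and leaving out either PN14 replicate. All 7 members are named, list genes are named where called, and the 3 most similar profiles are named for each member; nearest genes are given only for the FXYD genes. The members and lists were chosen with earlier results of these data known. The alpha subunit genes and 2 of the transport genes first listed are not reported here. Figures used matplotlib 3.10.9.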

Additional observations from a re-analysis of the deposited data

How the results depend on the processing

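Of 42 counts of called members under an alternative, 38 stayed within 1.5 times the reported count. The exceptions were E18.5 to PN2, with 1 member called by library size alone and 1 by DESeq2's Wald test, and PN14 to PN28 and PN28 to adult, with 1 each by library size alone; the reported count was 0 in each. Leaving out a PN14 replicate gave 0 to 1 members past 2-fold from PN14 to PN28 and 4 in either case from PN2 to PN14. With library size alone the rises from PN2 to PN14 were smaller, at log2 fold changes of 1.97 (Atp1b1), 1.70 (Fxyd1) and 1.17 (Atp1b2). From E18.5 to the adult they were 1.18, 1.30 and 1.99 in the same order. Each of these rises was still called. The fall of Atp1b4 was larger, at -4.38 (PN2 to PN14) and -9.31 (E18.5 to adult). Library size alone turned the sign of Atp1b3 from PN2 to PN14 (-0.49), of Fxyd5 from PN14 to PN28 (-0.0838) and PN2 to PN28 (-0.771), and of Fxyd6 from PN2 to PN28 (-0.68), none of them past the test; this setting leaves in the shift of the median gene. Shares from counts, not divided by length, put Atp1b4 at 84.0% (E18.5) and 77.8% (PN2) of the beta genes, and Fxyd1 at 53.3% (E18.5), 53.6% (PN2), 77.6% (PN14), 82.6% (PN28) and 73.7% (adult) of the FXYD genes, since Fxyd1 has a short transcript. The Atp1b4 share at PN14 ran from 1.44% to 8.88% and that of Fxyd1 from 90.9% to 92.7% with either replicate left out. By counts, Fxyd6 held 35.0% (E18.5) and 39.8% (PN2) of the FXYD genes, and Atp1b3 held 5.97% and 5.01% of the beta genes. Of 76 shares and ratios under an alternative, 42 stayed within the SD of the PN14 pair and 34 moved further. Of 280 log2 fold changes under an alternative, 4 turned sign, 7 gained a call and 2 lost one. No paired analysis was possible because the stages came from different animals. With 1 library at 4 of the 5 stages, the spread between mice at those stages is not measured.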
